A study of Mus musculus with 8 samples.

Results

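The 10 genes described here encode the main chaperones and disulfide isomerases of the endoplasmic reticulum (ER), the compartment in which secreted and membrane proteins fold. They are Hspa5, Hsp90b1, Pdia3, Pdia4, Pdia6, P4hb, Calr, Canx, Sdf2l1 and Dnajb9, taken by name, and all 10 were found among the 53801 Ensembl gene IDs counted. They were followed in resting B cells and T cells from the spleen of B6 mice, with no genetic change or stimulus given in the labels. The cells were sorted magnetically and cultured for 2 hours. Their mRNA was measured by RNA-seq and their translation by ribosome profiling, a method that reads the pieces of mRNA (footprints) shielded by ribosomes from nuclease. Only the cells for ribosome profiling received cycloheximide, an inhibitor of translation elongation, at 100 µg/ml for 15 minutes. Each of the 4 groups held 2 libraries. The B cell libraries are numbered 1 and 3 by the submitters, whichever the assay. The T cell libraries are numbered 1 and 4 in RNA-seq, but 1 and 2 in ribosome profiling.

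As background, proteins enter the ER unfolded and are held there by chaperones until they have folded and their disulfide bonds are in place. When unfolded proteins build up, the sensors IRE1, PERK and ATF6 start the unfolded protein response, which raises transcription of the chaperone genes through the factors ATF6 and XBP1. Cells of the B lineage are known for a large expansion of this machinery when they become antibody-secreting plasma cells, whereas resting lymphocytes secrete little.

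RNA-seq libraries held 8945905 to 10050986 counts and footprint libraries 136433 to 627833. The 10 genes together took 0.211% to 0.359% of the counts in RNA-seq and 0.572% to 1.22% in footprints. Levels are given in CPM, the count per 1e6 counts of the library after TMM scaling within an assay. A single count stood for 1.59 to 7.33 CPM in footprints, before that scaling. The sorted cells carried their own markers. The 10 B cell markers summed to 10802 and 11973 CPM of the unscaled total in B cell RNA-seq against 84.4 and 202 in T cells, and the 10 T cell markers to 4589 and 5424 in T cells against 39.1 and 520 in B cells. Immunoglobulin genes took 3.77% and 2.23% of the counts in B cell RNA-seq libraries 1 and 3, and 1.54% and 0.185% in T cell libraries 1 and 4. In bulk samples, more RNA per cell and more cells of a kind with much of that RNA cannot be told apart.

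Every gene in the set is protein coding, and positions are those of RefSeq in GRCm38.p6. Hspa5 (ENSMUSG00000026864, chromosome 2, 34772090 to 34776529) encodes BiP, the Hsp70 chaperone of the ER. Hsp90b1 (ENSMUSG00000020048, chromosome 10, 86690841 to 86705444) encodes GRP94, its Hsp90 chaperone, whose clients include Toll-like receptors and integrins. Pdia4 (ENSMUSG00000025823, chromosome 6, 47796141 to 47813512), Pdia6 (ENSMUSG00000020571, chromosome 12, 17266589 to 17284785) and P4hb (ENSMUSG00000025130, chromosome 11, 120560298 to 120573253) encode protein disulfide isomerases. Pdia3 (ENSMUSG00000027248, chromosome 2, 121413902 to 121438687) encodes ERp57, the isomerase that works with the lectin chaperones calreticulin and calnexin. Those lectins, which hold glycoproteins during folding, come from Calr (ENSMUSG00000003814, chromosome 8, 84842088 to 84846931) and Canx (ENSMUSG00000020368, chromosome 11, 50293957 to 50325673). Dnajb9 (ENSMUSG00000014905, chromosome 12, 44205897 to 44210068) encodes ERdj4, a J-domain partner of BiP. Sdf2l1 (ENSMUSG00000022769, chromosome 16, 17130138 to 17132383) encodes a component of ER chaperone complexes. The gene spans of Hspa5, Pdia3, Pdia4 and Pdia6 each overlap 1 other annotated gene (Rabepk, Catsper2, Mir704 and Atp6v1c2). Whether counting used strand was not stated, so that reads in those overlaps are uncertain.

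The promoters were searched for motifs of the unfolded protein response. The ER stress response element, bound by ATF6 together with NF-Y, consists of CCAAT and CCACG with 9 bases between them. It was searched on both strands in RefSeq windows of 250 bases before to 50 after each start, in GRCm38.p6. The windows of 5 of the 10 genes held an exact match, namely Hspa5, Hsp90b1, Pdia6, Calr and Canx, and Hsp90b1 held 2. Of all 32851 windows, 39 held a match (0.119%). The sites are shown because the element was in 5 of these windows and in few others. Capitals mark the ends of the element, and a site that starts with CGTGG lies on the other strand. Positions are counted from the start site, with negative numbers before it.
Hspa5, -65 to -47: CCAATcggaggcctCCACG
Hsp90b1, -212 to -194: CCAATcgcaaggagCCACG
Hsp90b1, -107 to -89: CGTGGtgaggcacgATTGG
Pdia6, -98 to -80: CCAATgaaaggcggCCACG
Calr, -162 to -144: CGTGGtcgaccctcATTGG
Canx, -145 to -127: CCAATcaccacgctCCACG

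The parts of the element were common on their own. CCAAT, the NF-Y box, stood in the windows of all 10 genes and in 37.4% of all windows, and CCACG in 9 of the 10 and in 32.8%. Each element found contains both, so these counts overlap with it. A second form of the element (ATTGG and CCACG with 1 base between them) was in no window of the set and in 0.0365% of all windows. The motif TGACGTG, a site of ATF6 and XBP1, was found only in the Hspa5 window within the set, against 2.01% of all windows. Among the other ER genes with a window, the element was present in 1 of 9 co-chaperones (Dnajc3), 2 of 17 oxidoreductases (Creld2 and Ero1b) and 2 of 14 degradation genes (Derl3 and Syvn1). It was in 0 of 11 glycoprotein folding genes, 0 of 6 prolyl isomerases and 0 of 12 genes of the unfolded protein response. A match describes letters, not a bound site, and a missing match says only that these exact letters are not in the window.

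The upstream sequences of 2 genes are given whole because they differ in this feature: Hspa5 (chr2:34771840-34772089, plus strand) holds the element and TGACGTG, both in capitals, and Pdia4 (chr6:47813513-47813762, minus strand), the gene with the largest difference between the cell types, has only NF-Y boxes in these bases, in capitals on either strand.
Hspa5: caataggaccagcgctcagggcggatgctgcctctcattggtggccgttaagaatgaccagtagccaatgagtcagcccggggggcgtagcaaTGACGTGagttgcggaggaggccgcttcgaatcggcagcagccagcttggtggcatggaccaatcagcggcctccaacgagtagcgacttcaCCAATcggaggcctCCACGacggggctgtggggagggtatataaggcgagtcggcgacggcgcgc
Pdia4: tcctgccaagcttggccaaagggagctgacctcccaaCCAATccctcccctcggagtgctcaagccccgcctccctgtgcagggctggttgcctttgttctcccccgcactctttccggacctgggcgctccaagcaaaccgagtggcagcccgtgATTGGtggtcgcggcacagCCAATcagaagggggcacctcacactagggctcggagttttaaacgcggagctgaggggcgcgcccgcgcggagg

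**Figure D1:**
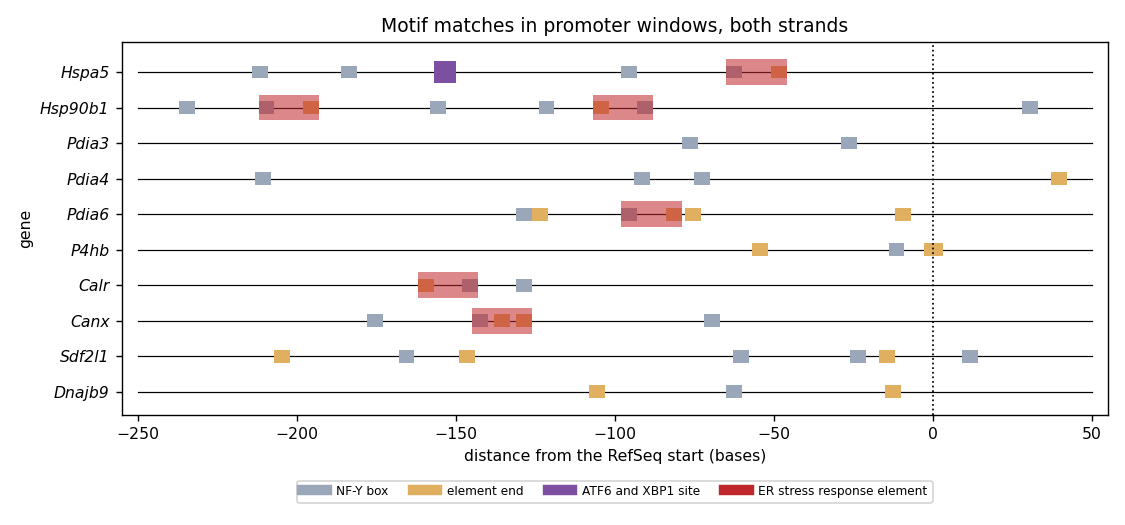
Motif matches on either strand in the promoter windows of the 10 genes; the horizontal axis is the distance from the RefSeq start in bases and each row is a gene. Red boxes are ER stress response elements, present in Hspa5, Hsp90b1 (2), Pdia6, Calr and Canx; grey, ochre and purple boxes are the NF-Y box, the other end of the element alone and the ATF6 and XBP1 site.

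The first comparison asked whether B and T cells differ in the mRNA and in the footprints of these genes. Pdia4 and Pdia6 passed as higher in B cells in both assays, and no gene of the set passed as lower. In mRNA 2 of 10 genes passed as higher (edgeR quasi-likelihood test, Benjamini-Hochberg adjusted p below 0.05 over all genes), against 9.40% of the 13929 genes tested, and 0 passed as lower, against 9.06%. The mRNA test can miss large differences: only 2 of the 10 T cell markers passed as lower, with a list median of -4.21 log2. In footprints 2 of 9 tested genes passed as higher, against 8.38% of 4771 genes, and 0 as lower, against 4.80%. The median log2 difference of the set, B over T, was 0.38 in mRNA and 0.90 in footprints, beside -0.01 and 0.02 for all genes tested. Both B cell libraries lay above both T cell libraries for 5 of 10 genes in mRNA (30.0% of all genes) and for 8 of 9 in footprints (25.8%). The n is 2 libraries per group throughout. A value after ± is a standard deviation (SD) for CPM and a standard error for a log2 difference.

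**Figure D2:**
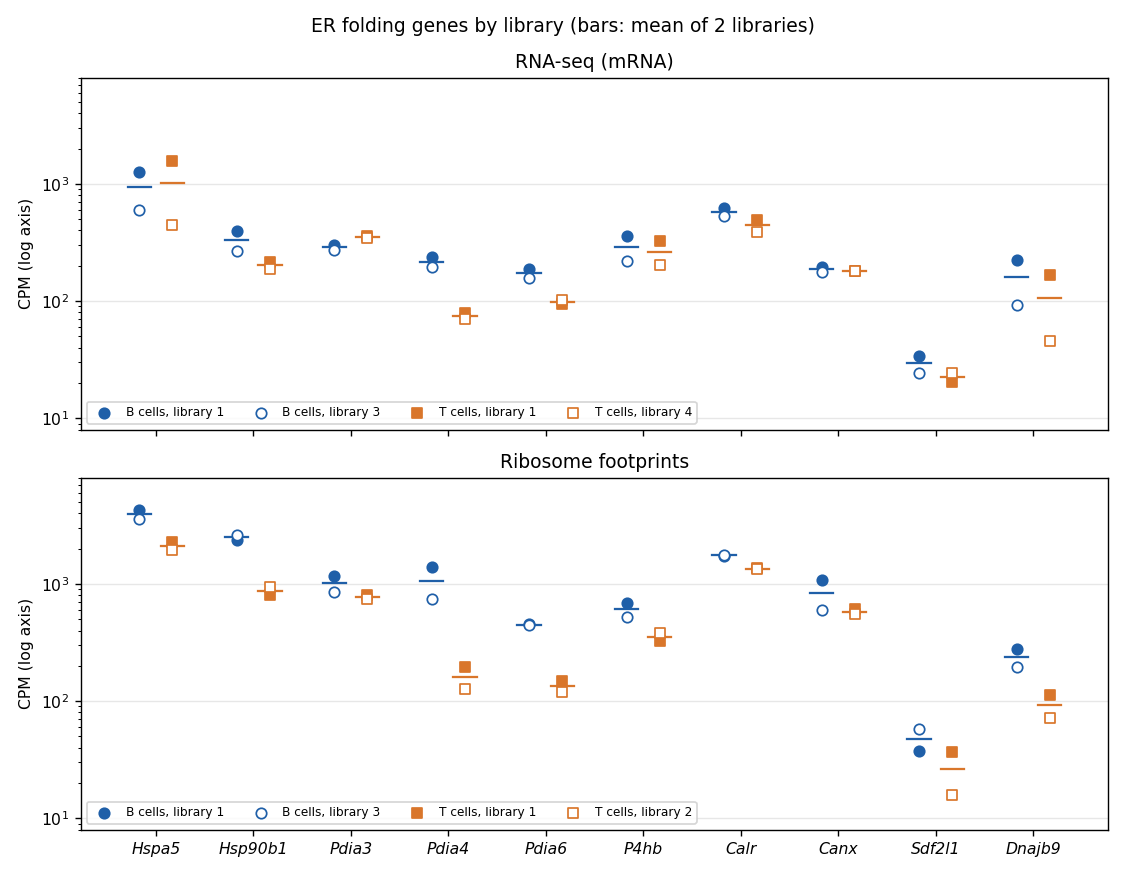
CPM (log axis) of the 10 genes in each of the 8 libraries, RNA-seq above and footprints below; circles are B cells, squares are T cells, filled symbols are the libraries numbered 1, and bars are means of 2 libraries. The B and T cell symbols of Pdia4 and Pdia6 do not overlap in either assay, and the RNA-seq libraries numbered 1 lie well above the others for Hspa5 and Dnajb9.

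Among the disulfide isomerases, Pdia4, which encodes ERp72, had 236 and 196 CPM of mRNA in B cell libraries 1 and 3 and 78.8 and 69.9 in T cell libraries 1 and 4. Its footprints stood at 1395 and 736 CPM in B cells, from 298 and 140 counts, and at 194 and 127 in T cells, from 121 and 16 counts. The cell types were apart in every library of both assays, although the B cell footprint libraries also differed from each other. The log2 difference was 1.54 ± 0.16 in mRNA (2.90-fold, adjusted p = 0.00870) and 2.68 ± 0.48 in footprints (6.42-fold, adjusted p = 0.00280). Pdia4 passed under all 13 alternatives in mRNA and all 12 in footprints. Pdia6, which encodes the isomerase P5, had 186 and 158 CPM of mRNA in B cells against 94.8 and 103 in T cells. Its footprints were at 454 and 442 CPM in B cells, against 148 and 119 in T cells, the last from 15 counts. Both assays again put the B cell libraries above the T cell libraries. The log2 difference of Pdia6 was 0.80 ± 0.15 in mRNA (1.74-fold, adjusted p = 0.0279) and 1.71 ± 0.39 in footprints (3.28-fold, adjusted p = 0.0112). The mRNA call for Pdia6 was lost without B cell library 1 (adjusted p = 0.101), T cell library 1 (0.101) or T cell library 4 (0.0864). The footprint call was lost without T cell library 1 (adjusted p = 0.0968) or 2 (0.121).

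The other isomerases did not pass. P4hb encodes the founding protein disulfide isomerase, which also serves as a subunit of prolyl 4-hydroxylase. It had 358 and 220 CPM of mRNA in B cells against 325 and 202 in T cells, so that the groups overlapped and library 1 was the higher of each pair. Its footprints were at 693 and 521 CPM in B cells, against 324 and 382 in T cells, without overlap (log2 difference 0.79 ± 0.40, adjusted p = 0.265). Pdia3 mRNA lay lower in both B cell libraries than in both T cell libraries, at 304 and 274 against 359 and 348 CPM. That log2 difference of -0.29 ± 0.15 did not pass (adjusted p = 0.262). In footprints Pdia3 lay the other way, at 1161 and 857 CPM in B cells against 804 and 749 in T cells (0.38 ± 0.42, adjusted p = 0.685).

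Of the chaperones, Hsp90b1 came nearest to the threshold. Its mRNA stood at 393 and 266 CPM in B cells, against 217 and 188 in T cells (log2 difference 0.70 ± 0.24, adjusted p = 0.118). The mRNA difference passed under 2 of 13 alternatives, DESeq2 (adjusted p = 0.0353) and a term for library number. Its footprints stood at 2382 and 2598 CPM in B cells, against 807 and 940 in T cells, which is apart by more than the spread within either group. The footprint difference was 1.51 ± 0.46 (2.86-fold, adjusted p = 0.0539), and it passed under 6 of 12 alternatives, among them DESeq2 (adjusted p = 0.0159) and limma voom (0.0141). Dnajb9 had 225 and 93.0 CPM of mRNA in B cells, against 167 and 46.0 in T cells, a wider spread within each cell type than between them. Its footprints did not overlap, at 281 and 195 CPM in B cells against 112 and 71.7 in T cells, the last from 9 counts (1.29 ± 0.41, adjusted p = 0.0653). The footprints of Dnajb9 passed under 3 of 12 alternatives.

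Hspa5 had 1263 and 597 CPM of mRNA in B cells, against 1573 and 443 in T cells. The T cell libraries enclosed the B cell libraries, and the log2 difference of -0.12 ± 0.69 did not pass (adjusted p = 0.930). Its footprints stood at 4292 and 3576 CPM in B cells, against 2275 and 1927 in T cells, all B cell values above all T cell values, but that difference did not pass either (0.90 ± 0.51, adjusted p = 0.332). Both intervals are wide, and a difference of 2-fold in either direction is within 2 standard errors for the mRNA.

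The lectin chaperones showed small differences. Calr mRNA was at 621 and 527 CPM in B cells, against 495 and 388 in T cells, and its footprints at 1746 and 1762 against 1358 and 1330. B cells were higher in every library of both assays, with log2 differences of 0.38 ± 0.20 (adjusted p = 0.282) and 0.38 ± 0.44 (adjusted p = 0.702). Canx had nearly the same mRNA in all libraries, 196 and 178 CPM in B cells, against 179 and 181 in T cells (0.05 ± 0.13, adjusted p = 0.834). Its footprints overlapped, at 1081 and 599 CPM in B cells against 611 and 549 in T cells (0.53 ± 0.44, adjusted p = 0.552). Sdf2l1 was the least counted gene of the set. Its mRNA was at 34.2 and 24.5 CPM in B cells, against 20.5 and 24.3 in T cells (0.39 ± 0.23, adjusted p = 0.331). With 8 and 11 footprints counted in the B cell libraries, and 23 and 2 in those of T cells, it did not pass the filter on low counts there.

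**Figure D3:**
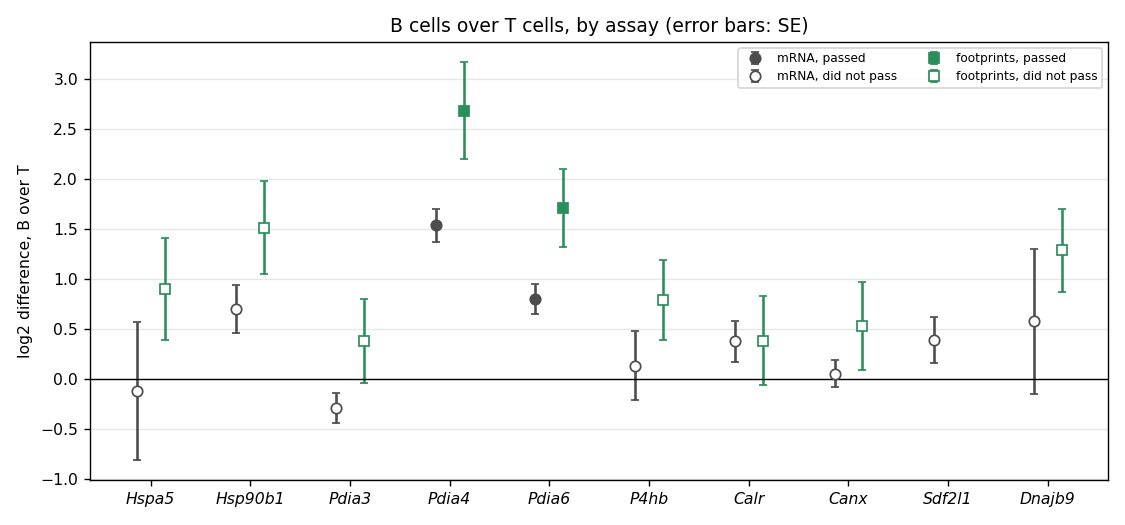
Log2 difference of B over T cells for each gene in mRNA (circles) and footprints (squares), with standard errors from the model; filled symbols passed at an adjusted p below 0.05. Pdia4 (1.54 and 2.68) and Pdia6 (0.80 and 1.71) passed in both assays, and Sdf2l1 has no footprint value.

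The rest of the ER folding pathway was read from 6 lists, whose counts stand beside the same shares of all genes (9.40% higher and 9.06% lower in mRNA, 8.38% and 4.80% in footprints). In mRNA 5 of 16 tested oxidoreductases and oxidases were higher in B cells and 1 was lower. Ero1b, an oxidase that supplies disulfide bonds to the isomerases, rose from 18.5 ± 2.4 CPM in T cells to 151 ± 7.2 in B cells (3.03 ± 0.15, adjusted p = 0.00209). Txndc16 was higher too (2.46 ± 0.12, adjusted p = 0.00209), and P4ha1, a catalytic subunit of prolyl 4-hydroxylase and partner of P4hb, was lower (-1.40 ± 0.16, adjusted p = 0.0101). In footprints 3 of 10 members of this list were higher and 0 lower, with Txndc5, a further thioredoxin-like isomerase, at 2.73 ± 0.42 (adjusted p = 0.00114) and Ero1b at 2.89 ± 0.51 (adjusted p = 0.00256). Of 12 co-chaperones, Cnpy3, which assists Hsp90b1 with Toll-like receptors, was higher in mRNA (1.55 ± 0.14, adjusted p = 0.00589). Dnajc3, an ER J-domain protein, was lower (-0.90 ± 0.15, adjusted p = 0.0227). In footprints Cnpy3 alone passed among 7 (2.22 ± 0.52, adjusted p = 0.0130).

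Among 14 genes of the unfolded protein response, 2 were higher in B cell mRNA and 0 lower, a share near that of all genes. They were 2 of its sensors, Atf6 (2.06 ± 0.30, adjusted p = 0.0161) and Eif2ak3, which encodes PERK (1.58 ± 0.27, adjusted p = 0.0230). In footprints Atf6 passed among 9 (1.87 ± 0.50, adjusted p = 0.0283). Of the 18 genes of ER-associated degradation, 2 were higher in mRNA and 0 lower, again near that share. They were Syvn1, the ubiquitin ligase HRD1 (2.25 ± 0.18, adjusted p = 0.00471), and Herpud1, its partner (1.10 ± 0.25, adjusted p = 0.0458). The same 2 passed among 13 in footprints, at 1.70 ± 0.40 (adjusted p = 0.0138) and 1.83 ± 0.47 (adjusted p = 0.0234). In the glycoprotein folding list 0 of 11 passed in either assay. Of 5 tested prolyl isomerases, Fkbp2 was higher (0.72 ± 0.16, adjusted p = 0.0396) and Ppic lower (-4.64 ± 1.03, adjusted p = 0.0436) in mRNA, and the 1 tested in footprints did not pass.

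Summed plasma cell markers differed between B and T cells in footprints, while the sums in mRNA overlapped. Summed over 6 genes, they had 1799 and 667 CPM of the unscaled total in B cell RNA-seq libraries 1 and 3 against 1125 and 131 in T cell libraries 1 and 4. In footprints they had 1427 and 3031 in B cells against 358 and 564 in T cells. Single markers differed in this. Jchain mRNA overlapped, at 1347 and 246 CPM in B cells against 994 and 56.3 in T cells, as did Prdm1 and Tnfrsf17. The mRNA of Mzb1 (386 and 284 against 37.5 and 5.60) and Sdc1 (33.3 and 19.3 against 11.8 and 0.951) did not overlap. Nor did that of Xbp1 (127 and 100 against 91.7 and 50.7). Of the 6, Mzb1 passed as higher in B cell mRNA, and Mzb1 and Jchain in footprints among 3 tested. The third, Xbp1, which is also in the list of the unfolded protein response, stood at -0.71 ± 0.42 in footprints (adjusted p = 0.362). Tnfrsf17, the plasma cell receptor BCMA, had 44 and 10 counts in B cell RNA-seq libraries 1 and 3, against 27 and 0 in T cell libraries 1 and 4. In footprints it had 2 counts in each B cell library and 0 in each T cell library. The part of plasma cells in the differences of Pdia4 and Pdia6 was not tested.

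The second comparison asked how many footprints each gene had for its mRNA. This ratio is relative to the typical gene, since each library is scaled to its own total, and mRNA counts can include untranslated ends that footprints leave out. In B cells 6 of the 10 genes had more footprints than mRNA by the test (edgeR, all 8 libraries), against 6.51% of 13227 genes, and 0 had fewer, against 12.3%. In T cells 4 of 10 had more, against 8.91%, and 0 fewer, against 18.6%. The median log2 ratio of the set was 1.49 in B cells and 0.87 in T cells, beside -0.44 and -0.54 for all genes. Because genes with few footprints lower that background, the fit was repeated on 7569 genes with a mean CPM of at least 10 in each assay. There the counts were again 6 and 4, against 9.18% and 13.0% of genes, and the medians of all genes were -0.03 and -0.10. The scaling moves this background: with RLE scaling the medians of all genes were -0.34 and -0.42. With DESeq2, 48.7% of the calls in B cells were towards footprints, against 34.7% in edgeR.

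Hsp90b1 had the highest ratio of the set in both cell types. Its log2 ratio of footprints to mRNA was 2.69 ± 0.31 in B cells (6.47-fold, adjusted p = 0.00117) and 1.86 ± 0.30 in T cells (3.64-fold, adjusted p = 0.00377). The lectin chaperones passed in both cell types. Canx stood at 1.95 ± 0.33 in B cells (adjusted p = 0.00619) and 1.46 ± 0.33 in T cells (adjusted p = 0.0133), and Calr at 1.39 ± 0.28 (adjusted p = 0.0120) and 1.37 ± 0.28 (adjusted p = 0.00971). Their partner Pdia3 followed at 1.58 ± 0.28 in B cells (adjusted p = 0.00701) and 0.90 ± 0.28 in T cells (adjusted p = 0.0412). The T cell calls were less stable than those in B cells. Calr lost its call without T cell RNA-seq library 4, Canx without T cell footprint library 1, and Pdia3 without T cell footprint library 1 or any of the 4 RNA-seq libraries. With the replicate block, Hsp90b1 (adjusted p = 0.0641), Calr (0.213) and Pdia3 (0.291) lost theirs in T cells.

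The isomerases Pdia4 and Pdia6 passed in B cells and not in T cells. Pdia4 was at 2.08 ± 0.38 in B cells (adjusted p = 0.00771) and 0.95 ± 0.38 in T cells (adjusted p = 0.0988), and Pdia6 at 1.16 ± 0.25 (adjusted p = 0.0161) and 0.25 ± 0.26 (adjusted p = 0.509). In T cells Pdia4 passed under 3 of 17 alternatives, DESeq2 (adjusted p = 0.0237) and without B cell footprint library 1 (0.0289) or 3 (0.0400). Hspa5 had 1.86 ± 0.60 in B cells (adjusted p = 0.0627) and 0.83 ± 0.59 in T cells (adjusted p = 0.313). Its B cell ratio passed under 9 of 18 alternatives, among them DESeq2 (adjusted p = 0.0117), voom (0.0412) and the replicate block (0.00727). P4hb was at 0.85 ± 0.35 (adjusted p = 0.124) and 0.17 ± 0.35 (adjusted p = 0.744). Sdf2l1 (0.46 ± 0.43 and 0.28 ± 0.42) and Dnajb9 (0.36 ± 0.64 and -0.33 ± 0.67) had the lowest ratios in B cells, and neither passed in either cell type. In B cells the calls of Pdia6 and Calr were lost without B cell RNA-seq library 3, and the other 4 calls held in all alternatives run.

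**Figure D4:**
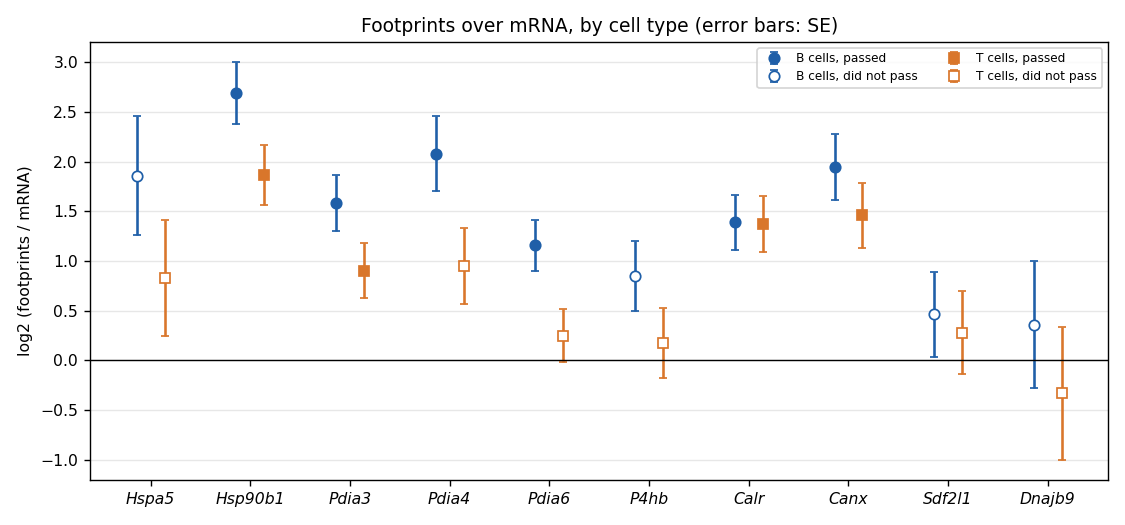
Log2 ratio of footprints to mRNA for each gene in B cells (circles) and T cells (squares), with standard errors from the model of 8 libraries; filled symbols passed at an adjusted p below 0.05. Hsp90b1 is highest in both (2.69 and 1.86), and Dnajb9 is lowest in both (0.36 and -0.33).

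The third comparison asked whether that ratio, the translational efficiency, differs between B and T cells. The interaction of assay and cell type called 0 of the 10 genes, and 0% of 13227 genes passed in edgeR. At an unadjusted p below 0.05 there were 748 genes (5.66%), and DESeq2 called 10 genes, none of them in the set, while limma voom called 0. The estimates of all 10 genes lay on the B cell side, against 51.8% of all genes, with a median of 0.69 beside 0.03. That of Calr was 0.02 ± 0.39 and fell to -0.02 with RLE scaling and -0.04 with TMM within each assay. The largest were those of Pdia4 (1.13 ± 0.53, adjusted p = 0.875), Hspa5 (1.02 ± 0.82, adjusted p = 0.910) and Pdia6 (0.91 ± 0.36, adjusted p = 0.875). The difference between the cell types in which isomerases passed is therefore not shown. On simulated counts of this design, 18.2% of genes changed 8-fold in efficiency were recovered, and 0% of those changed 2-fold. The changed genes were drawn from all 13227 tested, against 4771 in the footprint test, so many had few footprints. These shares need not hold for the more counted genes of this set.

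In the other ER lists the ratio went both ways. Their counts are small and stand beside 6.51% of all genes above and 12.3% below in B cells, with 8.91% and 18.6% for T cells. Of 12 co-chaperones 2 had more footprints than mRNA in B cells and 0 fewer, and 3 more and 1 fewer in T cells. Hyou1, the nucleotide exchange factor of BiP, passed in both (1.85 ± 0.30, adjusted p = 0.00490, and 1.04 ± 0.30, adjusted p = 0.0345), as did Manf. Of 11 glycoprotein folding genes 3 had more and 0 fewer in B cells, and 2 each way in T cells. Uggt1, which senses misfolded glycoproteins for the lectin cycle, stood at 1.34 ± 0.25 (adjusted p = 0.00928) and 0.78 ± 0.25 (adjusted p = 0.0469). Of 17 oxidoreductases 1 had more and 1 fewer in B cells, while T cells gave 2 and 1, with Tmx3 above (2.06 ± 0.35 and 1.12 ± 0.36) and Tmx2 below (-2.83 ± 0.62 and -2.26 ± 0.52) in both. Of 18 degradation genes 1 had more and 1 fewer in B cells, and 2 each way in T cells, with Vcp, the ATPase that extracts proteins from the ER membrane, below in both (-1.73 ± 0.33 and -1.08 ± 0.31). None of 5 prolyl isomerases passed, with 0 in each direction.

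Genes of the unfolded protein response also went both ways. Of 14 genes 1 had more and 2 had fewer footprints than mRNA in B cells, and 3 each way in T cells, with list medians of -0.03 and 0.41. Ddit3, which encodes the factor CHOP, was below in both (-2.10 ± 0.50, adjusted p = 0.0219, and -3.20 ± 0.65, adjusted p = 0.00911). Atf4, the main factor downstream of PERK, was below in B cells (-2.87 ± 0.61, adjusted p = 0.0138) and stood at -1.72 ± 0.58 in T cells (adjusted p = 0.0556). Both mRNAs are known to carry upstream reading frames, whose part here was not tested. Mbtps1 and Ppp1r15a were also below in T cells, while Mbtps2 was above in B cells and Creb3 above in T cells. Eif2ak3 passed above in T cells (1.97 ± 0.54, adjusted p = 0.0290). Xbp1 did so too (1.14 ± 0.36, adjusted p = 0.0449) and stood at -0.24 ± 0.38 in B cells (adjusted p = 0.680).

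The widest variation of 2 members was not between the cell types but between libraries of the same cell type, and it followed the library number. Hspa5 mRNA in library 1 was 2.12 times that of library 3 in B cells and 3.55 times that of library 4 in T cells. Dnajb9 mRNA was 2.42 and 3.64 times as high. These ratios were above those of 98.1% and 98.9% of genes with at least 10 counts in both libraries for Hspa5, and 99.0% and 98.9% for Dnajb9. P4hb mRNA was 1.63 and 1.61 times as high, above 94.8% and 92.9% of genes. The other 7 genes had ratios of 1.10 to 1.48 in B cells and 0.845 to 1.28 in T cells. With 2 libraries in a group these are descriptions, and no test was made.

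Other genes and the markers of several cell types differed by library number as well. Of the 14 genes of the unfolded protein response, 10 were higher in library 1 in B cells and 11 in T cells, with median ratios of 1.27 and 1.53. These medians are 0.34 and 0.61 in log2, beside -0.02 and -0.01 for all genes. Other ER lists moved less, and not all leaned to library 1. Higher there were 12 of 18 degradation genes in B cells and 13 of 17 in T cells (medians 0.10 and 0.21 log2). For co-chaperones it was 8 of 12 in each (0.17 and 0.09). For oxidoreductases it was 13 of 16 in B cells (0.10) and 8 of 16, no lean, in T cells (0.02). The share of all genes higher in library 1 was not counted, only the medians above. Ppp1r15a, a phosphatase subunit that ends the PERK response, was at 1369 and 716 CPM in B cells, against 1588 and 402 in T cells. Atf4 was at 852 and 512 CPM in B cells, against 588 and 312 in T cells. Among plasma cell markers Jchain, the joining chain of secreted antibody, was 5.47 times as high in library 1 in B cells and 17.6 times in T cells. Markers of other cells ran both ways in RNA-seq. The 8 macrophage markers summed to 43.6 and 243 CPM of the unscaled total in B cell libraries 1 and 3, and to 49.0 and 675 in T cell libraries 1 and 4. T cell markers in B cells were at 39.1 and 520. The neutrophil and myeloid precursor gene Mpo had 621 and 0 counts in the B cell libraries and 900 and 8 in the T cell libraries. The female-specific RNA Xist had 2362 and 1437 counts in the 2 libraries numbered 1, against 2 and 3 in the others. Over 11691 genes the log2 ratios of library 1 to the other library correlated between B and T cells (Pearson r = 0.48, across genes that share libraries and are not independent). The part of other cell types or of sex in the Hspa5 and Dnajb9 levels was not tested.

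Footprints of Hspa5 and Dnajb9 did not show the same spread. Hspa5 footprints in library 1 were 1.20 times those of library 3 in B cells and 1.18 times those of library 2 in T cells, and Dnajb9 footprints 1.44 times in B cells. In T cells Dnajb9 had too few counts for a ratio. Other members spread more in B cell footprints, Pdia4 at 1.89 times and Canx at 1.80 times, above 93.3% and 91.5% of genes. In T cells these were 1.52 and 1.11 times. Plasma cell markers ran the other way in footprints, with 0 of 4 measured genes higher in B cell library 1 and a median ratio of 0.496. The sum of neutrophil markers did too. It was 8.45 and 709 CPM of the unscaled total in B cell libraries 1 and 3, and 38.2 and 257 in T cell libraries 1 and 2. Y-linked counts of 4 genes were 72 and 53 in the B cell footprint libraries, against 8 and 1616 in B cell RNA-seq. In B cells equal numbers thus need not mean the same animal. In T cells these counts were low in library 1 of both assays, at 3 in footprints and 6 in RNA-seq. They were 35 in T cell footprint library 2 and 1575 in T cell RNA-seq library 4. When a library-1 term was put into the model (an alternative added once the data had been seen), the mRNA difference of B over T cells was 0.06 for Hspa5 and 0.72 for Dnajb9 (adjusted p = 0.0534). Hsp90b1 then passed in mRNA (0.68, adjusted p = 0.0371), in a model with only 1 residual degree of freedom.

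**Figure D5:**
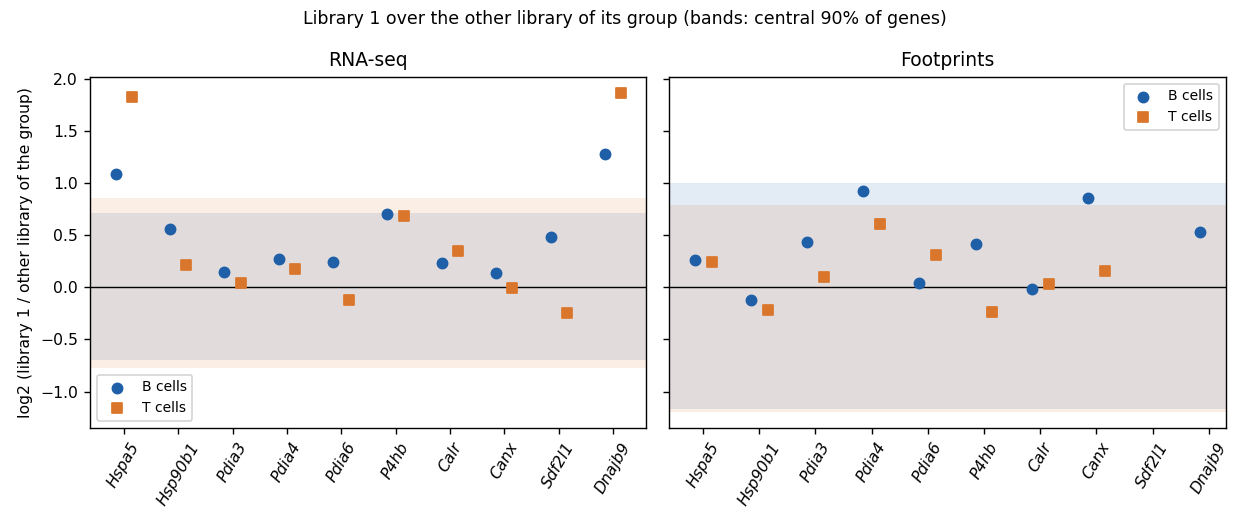
Log2 ratio of library 1 to the other library of the same group for each gene, RNA-seq on the left and footprints on the right; circles are B cells, squares are T cells, and shaded bands hold the central 90% of genes in B cells (blue) and T cells (orange). Hspa5 and Dnajb9 lie above the band in both cell types in RNA-seq and inside it in footprints, where a gene under 10 counts in either library is not drawn.

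The genes whose profile over the 8 libraries lay nearest the mean of the set were Arf6, Mtdh, Rabgap1l, Dnajc7 and Rraga. The measure was the root mean square difference in log2 CPM, centred within each assay, over 2209 genes with at least 10 counts in every library, and 8 of the 10 genes entered the mean. The differences were 0.104 for Arf6 to 0.166 for Rraga. The mean of the set was 0.73 and 0.38 in the B cell footprint libraries and -0.49 and -0.61 in the T cell ones. In RNA-seq it was 0.42 and 0.00 in B cells, against -0.01 and -0.41 in T cells.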

How the data were processed

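The deposited files of the authors hold counts per Ensembl gene, per the labels' processing notes and the values, 1 file for each of 8 libraries. FastQC, TopHat, Bowtie2 and HTSeq, with mm10 as the build, are listed in the submitters' processing notes, without versions or strand settings. Of 53801 IDs 53620 matched a symbol, no row was unnamed (0 of them), and 0 count columns were unused. Replicate libraries were not duplicates (chi-square divided by its degrees of freedom, 4.43 to 29.4). No label ties them to separate mice, and the p-values reflect only library-to-library spread, which may be technical.

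The main test was the quasi-likelihood F test of edgeR 4.0.16 (R 4.3.3) after TMM scaling and filterByExpr (minimum count 10, total 15), with Benjamini-Hochberg adjustment over all genes at 0.05. B and T cells were compared in the 4 libraries of an assay (2 residual degrees of freedom), and footprints with mRNA in a model of all 8 (4 residual degrees). The standard errors given are the absolute log2 difference divided by the square root of its F statistic. In simulated counts 55.2% of genes changed 4-fold were recovered in mRNA (13929 genes) and 77.6% in footprints (4771 genes). Alternatives were DESeq2 1.42.0, limma 3.58.1 voom, other scalings, gene classes, filters, thinning, leaving out each library and a block for replicate numbers. The block and the library-1 term each leave 1 residual degree of freedom.

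The members and lists were chosen with earlier results of these data known. All 10 members are named. Of other lists, up to 2 genes with the smallest p were named per direction. Herpud1, Ddit3, Atf4, Xbp1, Ppp1r15a, Jchain, Mzb1, Sdc1, Prdm1, Tnfrsf17, the neutrophil markers and Xist were also named where a result turns on them. Promoter sequences are RefSeq's (GRCm38.p6). Levels were not compared per length, as no transcript lengths were used here.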

Additional observations from a re-analysis of the deposited data

How the results depend on the processing

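With 2 libraries a group and footprint libraries of at most 627833 counts, small differences are out of reach. Without single libraries, 1 to 2 members passed in mRNA, 1 to 4 in footprints, and 2 to 5 in the ratio of footprints to mRNA in T cells. Thinning to the smallest footprint library left 1 in mRNA. Protein-coding genes only, or the library-1 term, gave 4 in footprints (Hsp90b1 and Dnajb9 added). All genes called in mRNA went from 2572 to 488 when thinned and to 1455 without B cell library 1. In footprints they went from 629 to 415 without T cell library 1. For the ratio, a mean CPM of at least 10 took calls from 2484 to 1475 in B cells and from 3642 to 2125 in T cells, and leaving out libraries to as few as 1281 and 947.

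In B cells the replicate numbers did not pair footprint with RNA-seq libraries: deviations of same-numbered libraries correlated at -0.17. In T cells only library 1 has the same number in both assays. Its deviations from footprint library 2 and from RNA-seq library 4 correlated at -0.01, which cannot decide the pairing there. Between B and T cell RNA-seq the deviations of library 1 correlated at 0.48. The library-1 term sets the libraries numbered 1 against those numbered 3 and 4 in RNA-seq, and against B cell library 3 and T cell library 2 in footprints. In the replicate block, T cell footprint library 2 and RNA-seq library 4 each stand alone. The T cell part of the block's results thus rests on the T cell libraries numbered 1. With the replicate block, 1 member passed in the T cell ratio, and 1684 genes in all. The block called 87 genes for translational efficiency and the crossed pairing 98, against 0, with 0 members in either. The efficiency of Sdf2l1 became -0.22 with the block and -0.23 with it crossed, and the P4hb ratio in T cells -0.16.

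Other signs that turned belonged to estimates that had not passed, and the cause was not tested. For mRNA, Hspa5 was 0.060 with voom and 0.056 with the library-1 term, and P4hb -0.17 when thinned. The efficiency of Calr was -0.027 with DESeq2, -0.024 with RLE, -0.024 with protein-coding genes, -0.013 without immunoglobulin genes, -0.026 with no filter, -0.0010 at a mean CPM of 10 and -0.036 with TMM per assay. The Dnajb9 ratio in T cells was 0.00098 with voom. Leaving out libraries gave mRNA ranges of -0.77 to 1.07 for Hspa5, -0.25 to 0.52 for P4hb, -0.0070 to 0.13 for Canx and -0.19 to 1.79 for Dnajb9. Efficiency ranged from -0.16 to 1.66 for Hspa5, -0.19 to 0.17 for Calr, -0.16 to 0.80 for Canx, -0.21 to 1.18 for Sdf2l1 and -0.51 to 1.47 for Dnajb9. The ratio ranged from -0.12 to 1.17 for Dnajb9 in B cells, and in T cells from -0.083 to 0.59 for P4hb, -0.76 to 0.65 for Sdf2l1 and -0.95 to 0.90 for Dnajb9.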

Other observations

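The ER stress response element occurred in the promoter windows of 37 named genes, of which 5 belong to the chaperone set and 5 to the other ER lists. Of these, Ero1b and Syvn1 were higher in B cells in both assays (mRNA 3.03 ± 0.15 and 2.25 ± 0.18 log2). Creld2, a disulfide isomerase-like gene, stood at 0.42 ± 0.21 in mRNA (adjusted p = 0.258) and 1.71 ± 0.52 in footprints (adjusted p = 0.0520, edgeR). Dnajc3 was lower in B cell mRNA (-0.90 ± 0.15). Of the 11 measured genes with the element outside the chaperone set, 6 were higher in RNA-seq library 1 in B cells and 6 in T cells, with medians of 0.14 and 0.04 log2, beside -0.02 and -0.01 for all genes.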
